A study of Mus musculus with 9 samples.

Results

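Ribosome biogenesis genes encode the proteins that transcribe, cut, modify and fold ribosomal RNA and assemble it with ribosomal proteins. Here 34 such genes, given as a list of symbols, were followed through RNA-seq libraries of mouse epiblast-like cells. All 34 were found among the 23453 symbols of the count table, and all 34 passed the filter on low counts in each comparison. Each library is a bulk sample, in which fewer cells of a type and less RNA per cell cannot be told apart. The study grew EpiLCs (epiblast-like cells) from naive embryonic stem cells over 48 h in N2B27 medium with 1% KSR, FGF2 and Activin A. These EpiLCs were then kept for 24 h either in N2B27 medium lacking added Activin, giving aEpiLCs (anterior epiblast-like cells), or with the Wnt agonist CHIR99021 and Activin, giving pEpiLCs (posterior epiblast-like cells). The methods add 1% KSR to both of these media and name no FGF2 in either, so FGF2 also differs in each comparison against EpiLCs. The study calls the cells wild-type, and the labels name no cell line. There were 3 libraries of each state, and the labels do not say whether these were separate cultures, so p-values measure only the spread between these samples. EpiLC libraries were collected 24 h before the others, so the change of medium and the extra day of culture cannot be told apart in comparisons against EpiLCs. pEpiLCs and aEpiLCs were of the same age. Their media differed in both CHIR99021 and Activin, and the parts of these in any difference cannot be told apart.

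Each library held between 20560564 and 23417917 counts, and no member had fewer than 968 counts in any library. Levels are given as CPM, the gene's counts scaled to a fixed library total, after normalization for library composition. Genes were tested with edgeR's quasi-likelihood test, and a gene passed the test at a Benjamini-Hochberg adjusted p below 0.05 over all genes tested. A stricter limit adds a change of at least 2-fold. Primitive streak markers separated the pEpiLC libraries from the others, with a summed level of 8 markers between 854 and 2604 CPM against at most 38.2 CPM in any other library. In aEpiLCs the forebrain marker Six3 and Hesx1 were near 0, and the 8 anterior neural markers, carried by Otx2, Sox2 and Sox3, summed to 294 to 307 CPM against 194 to 214 CPM in EpiLCs and 83.3 to 129 CPM in pEpiLCs. The higher sum in aEpiLCs came from Otx2 and Sox2, which epiblast cells also express, while Sox1 and Sox3 overlapped with EpiLCs. Pax6 was low but higher in every aEpiLC library, with 1.83, 1.99 and 2.16 CPM against at most 0.653 CPM in any other library. The 6 epiblast-like markers summed to 4313 to 4578 CPM in EpiLCs, 4003 to 4274 CPM in aEpiLCs and 1811 to 3080 CPM in pEpiLCs, where Dnmt3b and Utf1 were low, Pou5f1 had 792 to 1076 CPM against 1104 to 1127 CPM in EpiLCs and Fgf5 was higher than in EpiLCs (161 to 180 against 76.4 to 89.7 CPM), and the part of this in the members' levels was not tested. Markers of naive stem cells summed to at most 40.3 CPM. Markers of fibroblast feeders summed to at most 24.6 CPM and those of extraembryonic endoderm to at most 36.2 CPM, the latter mostly Rhox5 in EpiLCs. Among the pEpiLC libraries, replicate 1 stood apart. Its primitive streak gene T had 1093 CPM against 206 and 222 CPM in replicates 2 and 3, and it was the lowest of the pEpiLC libraries for 31 of the 34 members. Values without this library are given where they change a result.

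Ribosome production starts in the nucleolus, where RNA polymerase I copies the ribosomal DNA repeats into a long precursor. Small nucleolar ribonucleoproteins (snoRNPs) then guide the chemical modification of this RNA, box C/D particles adding methyl groups and box H/ACA particles converting uridine to pseudouridine. Separate assemblies, the small subunit processome and the pre-60S particles with the PeBoW complex, cut and fold the precursor into the RNAs of the 40S and 60S subunits. Pluripotent cells are known for large nucleoli and high output of this pathway, and genes for it are classic targets of the Myc transcription factors.

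Together the 34 genes took up between 1.58 and 1.63% of all counts in the EpiLC libraries. In aEpiLCs the share was 1.37 to 1.42%, and in pEpiLCs it was 1.35 to 1.5%, so every library collected a day later lay below every EpiLC library. Npm1 and Ncl supplied a large part of these counts. Without them the shares were 0.858 to 0.879% in EpiLCs, 0.744 to 0.754% in aEpiLCs and 0.744 to 0.810% in pEpiLCs, again with no overlap between EpiLCs and the later libraries.

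**Figure D1:**
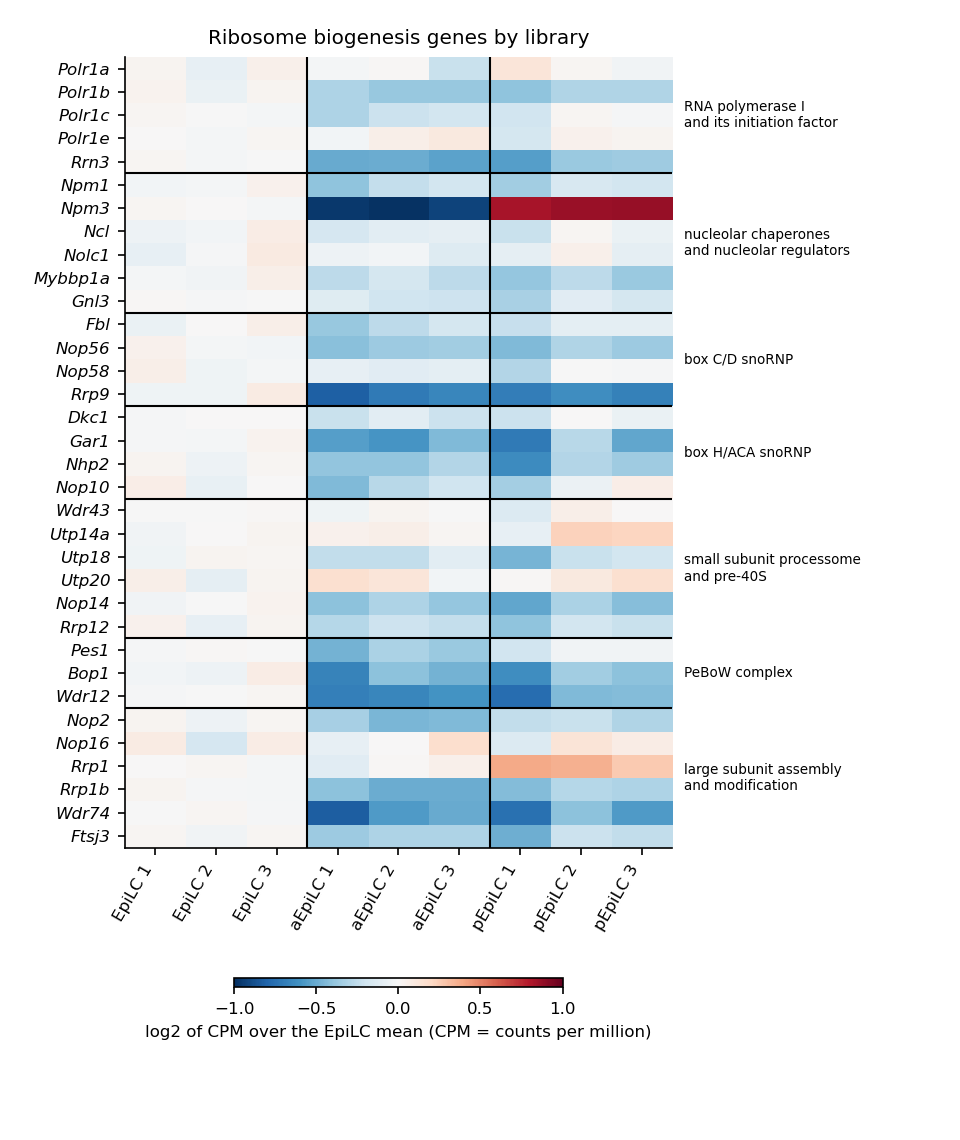
Level of each of the 34 genes in each of the 9 libraries, as the log2 of its CPM over the mean CPM of the 3 EpiLC libraries, with genes in rows grouped by role and libraries in columns. Most rows are blue in both aEpiLCs and pEpiLCs, while Npm3 is blue in aEpiLCs and red in pEpiLCs and Rrp1 is red in pEpiLCs.

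In aEpiLCs, 24 of the 34 genes were lower than in EpiLCs, none was higher and 10 did not pass the test. The falls were small. The median log2 fold change of the list was -0.29, while that of all 15301 genes tested was 0.00. Across all genes, 22.6% were lower and 24% were higher by the same test, and among the 4103 genes at least as abundant as the least abundant member, 31.8% were lower. No member passed the 2-fold limit, which 12.5% of all genes did. In 26 of the 34 genes every aEpiLC library lay below every EpiLC library, and libraries of these states did not overlap for 56.1% of all genes. The count of higher members was also 0 at an unadjusted p below 0.05 and with DESeq2. The counts of lower members ranged from 22 to 25 over all 14 alternative settings.

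In pEpiLCs, 18 of the 34 genes were lower than in EpiLCs, 2 were higher, Npm3 and Rrp1, and 14 did not pass the test. Without pEpiLC replicate 1, 18 were lower and 3 higher, with Utp14a added. The median log2 fold change was -0.22, against 0.02 for all 15288 genes tested. Of all genes, 21.4% were lower and 22.8% higher, and of genes at least as abundant as the least abundant member, 26.3% were lower. Again no member passed the 2-fold limit, against 15.8% of all genes. Every pEpiLC library lay below every EpiLC library for 20 members and above for 2, while libraries did not overlap for 58.6% of all genes. The comparisons against EpiLCs share the same EpiLC libraries, so their values are set side by side below and are not independent.

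The direct comparison of the later states reuses their libraries, so it is not independent of the comparisons against EpiLCs. Between pEpiLCs and aEpiLCs, 3 members differed and all 3 were higher in pEpiLCs. These were Npm3, Rrp1 and Pes1. None was lower, also at an unadjusted p below 0.05 and with DESeq2, and 31 did not pass the test. Over all 15198 genes tested, 6.28% were higher and 9.3% lower. Npm3 alone passed the 2-fold limit, as did 7.29% of all genes. The 31 other members had log2 fold changes between -0.12 and 0.19, or between -7.69% and 14.1%, and the 95% intervals of all 31 lay between -0.30 and 0.45. Libraries did not overlap for 4 members that were higher and 1 that was lower, against 39% of all genes. The count of 3 depended on single libraries. It was 1 without aEpiLC replicate 1 or 2, leaving Npm3, and 6 without pEpiLC replicate 1, when Nop10, Polr1c and Wdr12 were also higher in pEpiLCs.

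**Figure D2:**
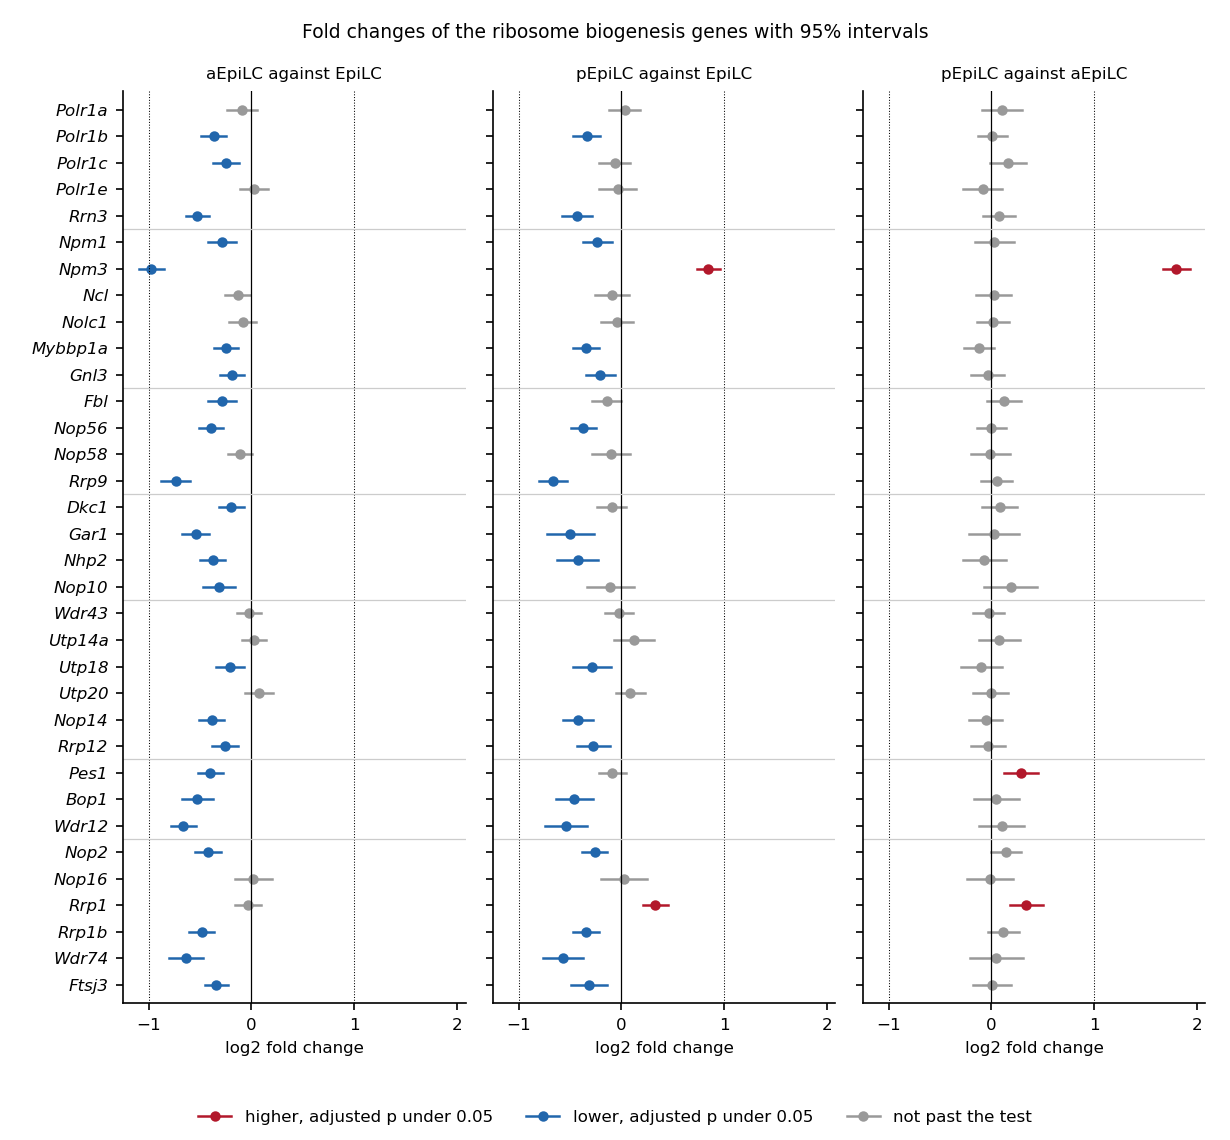
Log2 fold change of each gene (point) with its 95% interval (line) in the 3 comparisons, with red for genes higher and blue for genes lower at an adjusted p below 0.05, grey for genes that did not pass, and dotted lines at the 2-fold limit. Against EpiLCs, 24 points are blue and 10 grey for aEpiLCs, and 18 are blue, 2 red and 14 grey for pEpiLCs. The comparison of pEpiLCs with aEpiLCs holds 3 red points, with Npm3 at 1.80 far from the 31 grey points.

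Npm3, a small histone and RNA chaperone of the nucleoplasmin family, was the member that moved most, and it moved in opposite directions. It had 131, 130 and 128 CPM in EpiLC replicates 1, 2 and 3. In the aEpiLC libraries it had 66.4, 65.4 and 68.2 CPM, and in the pEpiLC libraries 229, 236 and 237 CPM. The 3 states formed separate groups with no overlap, and replicates within a state lay close to each other, pEpiLC replicate 1 included. Npm3 fell by 0.97 on the log2 scale in aEpiLCs (standard error 0.058, adjusted p = 3.63e-08), just short of the 2-fold limit, and rose by 0.85 in pEpiLCs (standard error 0.047, adjusted p = 4.29e-05). It was 3.48-fold higher in pEpiLCs than in aEpiLCs, or by 1.80 on the log2 scale (standard error 0.057, adjusted p = 1.22e-05), and stayed between 1.79 and 1.82 over the 14 alternatives. The gene lies on chromosome 19 from 45747734 to 45749591 on the minus strand of GRCm38 (ENSMUSG00000056209.7). A processed copy, Npm3-ps1, is listed separately in the table at no more than 0.336 CPM in any state.

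Npm1, nucleophosmin, is the abundant relative of Npm3 and helps carry pre-ribosomes out of the nucleus. It had 4146, 4186 and 4369 CPM in EpiLCs. In aEpiLCs it had 3199, 3596 and 3732 CPM and in pEpiLCs 3319, 3787 and 3721 CPM. All later libraries lay below the EpiLC libraries, and aEpiLCs and pEpiLCs overlapped. Its log2 fold change was -0.29 in aEpiLCs (standard error 0.064, adjusted p = 0.0026) and -0.24 in pEpiLCs (standard error 0.062, adjusted p = 0.0179), the latter not past the test without EpiLC replicate 1, 2 or 3 (highest adjusted p = 0.0777). Between pEpiLCs and aEpiLCs the difference was 0.03, with a 95% interval from -0.16 to 0.22. Per kilobase of coding sequence, Npm1 was present at 19.6 ± 0.839 times the level of Npm3 in EpiLCs (SD, n = 3), 31.5 ± 2.31 times in aEpiLCs and 9.24 ± 0.50 times in pEpiLCs. Genes with similar sequence, 6 of them in the table, are listed apart from Npm1, the most abundant at 8.03 CPM. Part of the reads of Npm1 or of these genes could have been assigned to the other.

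**Figure D3:**
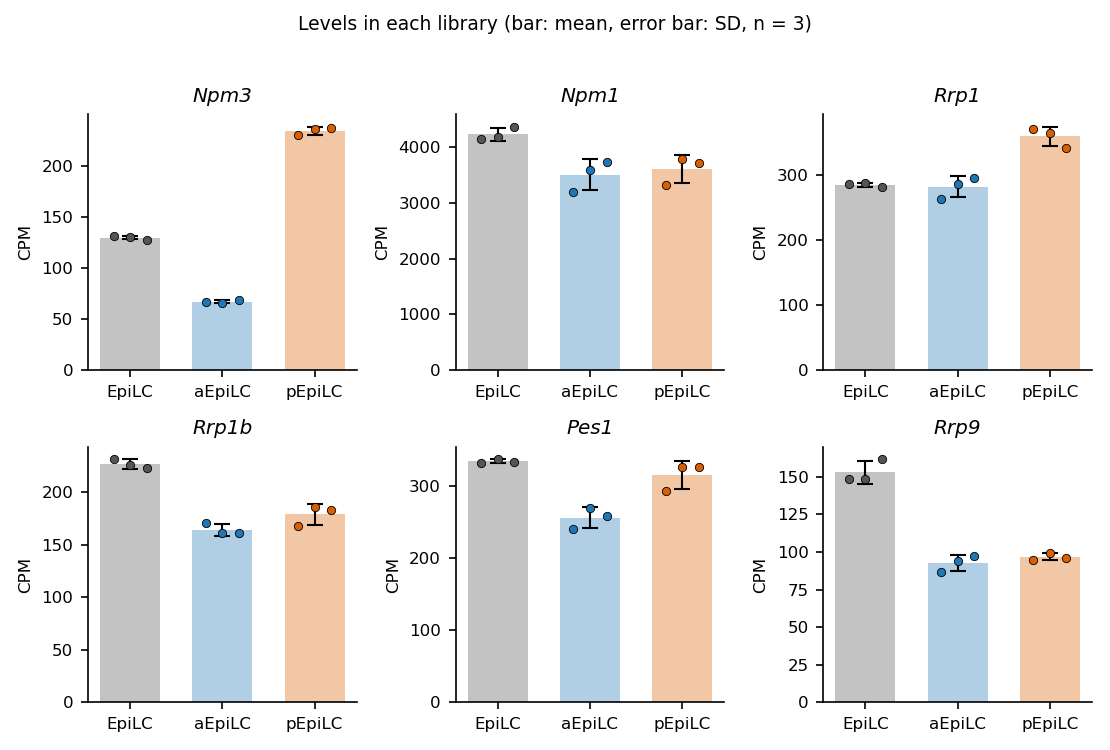
CPM of 6 genes in each library (points), with the mean (bar) and SD (error bar) of the 3 libraries of each state. Npm3 separates all 3 states, Rrp1 stands out in pEpiLCs, Pes1 is lowest in aEpiLCs, and Npm1, Rrp1b and Rrp9 are lower in both later states than in EpiLCs.

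Of the 4 other nucleolar proteins, Mybbp1a and Gnl3 were lower in both later states. Mybbp1a, a nucleolar binding partner of Myb that is also tied to ribosomal RNA processing, had log2 fold changes of -0.25 in aEpiLCs and -0.34 in pEpiLCs against EpiLCs (adjusted p = 0.00253 and 0.00258). It was the only member whose pEpiLC libraries all lay below the aEpiLC libraries, with 782 to 852 CPM against 852 to 904 CPM. The groups all but touched, and the log2 fold change of -0.12 did not pass the test (adjusted p = 0.256). Gnl3, the nucleolar GTPase nucleostemin, had log2 fold changes of -0.19 and -0.21 (adjusted p = 0.011 and 0.0272). Its call in aEpiLCs was lost with library sizes alone, and its call in pEpiLCs was lost without any EpiLC replicate, without pEpiLC replicate 3, with the likelihood ratio test and with the replicate number as a block. Ncl, nucleolin, with a log2 fold change of -0.13 in aEpiLCs (adjusted p = 0.067), and Nolc1, a chaperone of snoRNPs, with -0.08 (adjusted p = 0.272), did not pass the test there, nor did they in pEpiLCs.

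Among the genes of RNA polymerase I, the largest falls were in Rrn3, the initiation factor that makes the polymerase competent to start at the ribosomal DNA promoter. Rrn3 had 249.2, 244 and 246 CPM in EpiLCs. It had 174, 175 and 170 CPM in aEpiLCs and 168, 190 and 193 CPM in pEpiLCs. Every later library was lower than every EpiLC library. The log2 fold change was -0.53 in aEpiLCs (standard error 0.054, adjusted p = 4.24e-06) and -0.43 in pEpiLCs (standard error 0.062, adjusted p = 0.00168). Polr1b, a core catalytic subunit, fell by 0.37 and 0.34 on the log2 scale. Polr1c, a subunit also used by RNA polymerase III, had 137, 134 and 133 CPM in EpiLCs and 109, 116 and 119 CPM in aEpiLCs, and it had 118, 136 and 133 CPM in pEpiLCs. It fell by 0.25 in aEpiLCs (adjusted p = 0.00353) and did not pass the test in pEpiLCs, where replicates 2 and 3 lay within the range of EpiLCs and replicate 1 below it. Its difference between pEpiLCs and aEpiLCs was 0.16 (adjusted p = 0.179) and 0.23 without pEpiLC replicate 1 (adjusted p = 0.0325). Polr1a, the largest subunit, and Polr1e did not pass the test in any comparison, with log2 fold changes between -0.09 and 0.10.

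Of the box C/D proteins, Rrp9, which binds the U3 snoRNA used in pre-ribosome cutting, had the largest fall of the group. It had 149, 149 and 162 CPM in EpiLCs. The level was 87.0, 93.8 and 97.3 CPM in aEpiLCs and 95, 99.5 and 96 CPM in pEpiLCs. Both later states were well below EpiLCs and overlapped each other. The log2 fold change was -0.74 in aEpiLCs (standard error 0.065, adjusted p = 1.16e-06) and -0.67 in pEpiLCs (standard error 0.058, adjusted p = 0.00023), equal to falls of 40.1 and 37.0%. Nop56 and Nop58 are paired scaffold proteins of the same particle, and their values differed. Nop56 had 646, 619 and 617 CPM in EpiLCs. It had 469, 489 and 493 CPM in aEpiLCs and 463, 509 and 489 CPM in pEpiLCs, which are falls against EpiLCs by 0.39 (standard error 0.054, adjusted p = 6e-05) and 0.37 (standard error 0.053, adjusted p = 0.00158) on the log2 scale. Nop58 had 470, 439 and 447 CPM in EpiLCs, 427, 417 and 423 CPM in aEpiLCs and 370, 450 and 447 CPM in pEpiLCs. Its log2 fold changes of -0.11 and -0.10 did not pass the test (adjusted p = 0.104 and 0.324). Whether the falls of Nop56 and Nop58 differ from each other was not tested. Fbl, fibrillarin, the methyltransferase of the particle, had 363, 381 and 395 CPM in EpiLCs, 291, 317 and 336 CPM in aEpiLCs and 324, 355 and 356 CPM in pEpiLCs. It was lower in aEpiLCs by 0.29 on the log2 scale (adjusted p = 0.0027), and in pEpiLCs the log2 fold change was -0.14 (adjusted p = 0.0846). Transcripts of Tulp4, listed at up to 97.4 CPM, share stretches of at least 90% identity with Fbl, so part of the reads of either gene could have been assigned to the other.

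All 4 box H/ACA proteins were lower in aEpiLCs, and Gar1 and Nhp2 were lower in pEpiLCs. Gar1, which helps load substrate RNA into the particle, had 138, 137 and 143 CPM in EpiLCs, 95.4, 92.9 and 103 CPM in aEpiLCs and 85.8, 115 and 97.4 CPM in pEpiLCs. Its log2 fold change was -0.54 in aEpiLCs (standard error 0.062, adjusted p = 1.14e-05) and -0.50 in pEpiLCs (standard error 0.099, adjusted p = 0.00608). Nhp2, another core protein, fell by 0.38 in aEpiLCs and 0.42 in pEpiLCs on the log2 scale. Nop10, the smallest core protein, had 126, 114 and 121 CPM in EpiLCs. It had 88.9, 99.5 and 105 CPM in aEpiLCs and 95.2, 116 and 126 CPM in pEpiLCs. The fall of 0.32 on the log2 scale in aEpiLCs passed the test (adjusted p = 0.00252), and the -0.11 of pEpiLCs did not (adjusted p = 0.415). Its difference between pEpiLCs and aEpiLCs was 0.19 with a 95% interval from -0.07 to 0.45, and it was 0.30 without pEpiLC replicate 1 (adjusted p = 0.0219). Dkc1, dyskerin, the pseudouridine synthase, fell by 0.20 in aEpiLCs (adjusted p = 0.0108) and had -0.10 in pEpiLCs (adjusted p = 0.249). Per kilobase of coding sequence these 4 genes did not stand at like levels. In EpiLCs Nhp2 had 682 ± 19.2 CPM and Nop10 629 ± 31.2 CPM per kilobase, against 202 ± 4.55 CPM for Gar1 and 184 ± 1.22 CPM for Dkc1 (SD, n = 3). Reads in untranslated regions count towards these values while the lengths leave those regions out.

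The small subunit group split evenly in aEpiLCs and in pEpiLCs, with 3 of 6 members lower in each. Nop14, a processome protein needed for 18S RNA maturation, had 214, 219 and 225 CPM in EpiLCs, 165, 177 and 167 CPM in aEpiLCs and 153, 176 and 163 CPM in pEpiLCs. All later libraries were below all EpiLC libraries, with log2 values of -0.39 (standard error 0.057, adjusted p = 0.000106) and -0.42 (standard error 0.063, adjusted p = 0.0019). Rrp12, which takes part in export of the pre-40S particle, fell by 0.26 and 0.27 on the log2 scale. The pEpiLC call of Rrp12 was lost without EpiLC replicate 1 or 3 (highest adjusted p = 0.066). Utp18, a processome scaffold protein, had 107, 112 and 111 CPM in EpiLCs, 92.4, 92.6 and 102 CPM in aEpiLCs and 79.6, 94.2 and 96.6 CPM in pEpiLCs. Its falls of 0.21 and 0.29 on the log2 scale (adjusted p = 0.0143 and 0.0208) rested on single libraries. The first was lost without EpiLC replicate 2 or 3, without aEpiLC replicate 1 or 2, with library sizes alone and with all 9 libraries in the fit, and the other without any of the EpiLC replicates. Wdr43, Utp14a and Utp20, also processome proteins, did not pass the test in any of the 3 comparisons. Their log2 fold changes lay between -0.03 and 0.12, and Utp14a reached 0.22 in pEpiLCs against EpiLCs without pEpiLC replicate 1 (adjusted p = 0.00243).

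The PeBoW complex, which matures the 5.8S and 28S RNAs of the large subunit, was lower in aEpiLCs in all 3 of its members. Wdr12 had 167, 168 and 171 CPM in EpiLCs. It had 105, 107 and 111 CPM in aEpiLCs and 99.3, 124 and 125 CPM in pEpiLCs, all below EpiLCs. The log2 fold change was -0.66 in aEpiLCs (standard error 0.057, adjusted p = 9.04e-07) and -0.54 in pEpiLCs (standard error 0.088, adjusted p = 0.00262). Bop1 fell by 0.53 and 0.46 on the log2 scale. Pes1, the remaining protein, passed the test in aEpiLCs and not in pEpiLCs. It had 331, 337 and 333 CPM in EpiLCs, 241, 269 and 258 CPM in aEpiLCs and 293, 326 and 326 CPM in pEpiLCs, so that the aEpiLC libraries were below all others and the pEpiLC libraries lay between. Pes1 fell by 0.40 on the log2 scale in aEpiLCs (standard error 0.058, adjusted p = 9.37e-05) and its value in pEpiLCs was -0.09 (standard error 0.057, adjusted p = 0.238). The difference between pEpiLCs and aEpiLCs was 0.29 (standard error 0.070, adjusted p = 0.0316). This call was lost without any of the 3 aEpiLC replicates and without pEpiLC replicate 2 or 3, with an adjusted p from 0.00375 to 0.110 over the alternatives. The values of Wdr12 and Bop1 in the same comparison were 0.10 (95% interval -0.12 to 0.31) and 0.05 (95% interval -0.17 to 0.27). Without pEpiLC replicate 1, Wdr12 also passed the test as higher in pEpiLCs. Pes1 lies on chromosome 11 from 3963975 to 3980004 on the plus strand of GRCm38.

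Among the large subunit assembly factors, the paralogues Rrp1 and Rrp1b changed in opposite directions in pEpiLCs. Rrp1 had 285, 287 and 280 CPM in EpiLCs, 263, 286 and 294 CPM in aEpiLCs and 370, 364 and 342 CPM in pEpiLCs. Only the pEpiLC libraries stood out, all above the other 6. On the log2 scale pEpiLCs were higher by 0.33 than EpiLCs (standard error 0.053, adjusted p = 0.00255) and by 0.34 than aEpiLCs (standard error 0.068, adjusted p = 0.0165), the latter not past the test without aEpiLC replicate 1 or 2 (highest adjusted p = 0.0701). Its log2 fold change in aEpiLCs was -0.03 (adjusted p = 0.692). Rrp1b had 232, 225 and 223 CPM in EpiLCs, and the later libraries were all lower, with 170, 161 and 161 CPM in aEpiLCs and 168, 186 and 183 CPM in pEpiLCs. Its log2 fold change was -0.48 in aEpiLCs (standard error 0.056, adjusted p = 1.34e-05) and -0.35 in pEpiLCs (standard error 0.055, adjusted p = 0.0025). Per kilobase of coding sequence, Rrp1 stood at 1.84 ± 0.0326 times the level of Rrp1b in EpiLCs, 2.52 ± 0.222 times in aEpiLCs and 2.95 ± 0.256 times in pEpiLCs (SD, n = 3). Rrp1 lies on chromosome 10 from 78400384 to 78413043 and Rrp1b on chromosome 17 from 32036100 to 32062865 (GRCm38).

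Wdr74, a pre-60S factor, had 126, 128 and 126 CPM in EpiLCs, 71.8, 85.6 and 89.7 CPM in aEpiLCs and 75.9, 95.7 and 85.9 CPM in pEpiLCs. It fell by 0.64 (standard error 0.077, adjusted p = 1.89e-05) and 0.57 (standard error 0.083, adjusted p = 0.0017) on the log2 scale. Nop2, a methyltransferase of the 28S RNA, fell by 0.42 in aEpiLCs and 0.26 in pEpiLCs, and all pEpiLC libraries were above all aEpiLC libraries (257 to 271 against 230 to 252 CPM), a difference of 0.14 that did not pass the test (adjusted p = 0.174). Ftsj3, another methyltransferase of pre-60S particles, fell by 0.34 and 0.32. Nop16 had log2 fold changes between -0.01 and 0.02 over the 3 comparisons and did not pass the test in any. Wdr74, Nop16 and Ftsj3 had, between pEpiLCs and aEpiLCs, 95% intervals within -0.24 and 0.31.

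The other genes of the pathway were taken from lists that leave out the 34 members, and no test compared the lists with each other. Over all genes tested, 22.6% were lower and 24% higher in aEpiLCs, and 21.4% were lower and 22.8% higher in pEpiLCs. Of 41 other small subunit factors, 25 were lower and 1 higher in aEpiLCs, and 17 were lower and 2 higher in pEpiLCs, with median log2 fold changes of -0.20 and -0.13. Utp4, a processome protein, fell by 0.68 in aEpiLCs (standard error 0.056, adjusted p = 6.17e-07) and 0.57 in pEpiLCs (standard error 0.067, adjusted p = 0.000763). Utp23 was the single riser in aEpiLCs, at 0.43 (adjusted p = 0.00843). Of 47 other large subunit factors, 26 were lower and 3 higher in aEpiLCs, and 19 were lower and 3 higher in pEpiLCs, with medians of -0.21 and -0.16. Noc2l fell by 0.70 and 0.61, and Nle1 by 0.66 and 0.49. Of 10 other genes of the RNA polymerase I machinery, 4 were lower in aEpiLCs and 2 in pEpiLCs, with medians of -0.20 and -0.09 and with Cd3eap, a polymerase I subunit, at -0.47 and -0.44, the latter not past the test without EpiLC replicate 3. The 2 polymerase I genes lower in pEpiLCs are 20% of the 10, near the share of all genes. Without pEpiLC replicate 1, 4 of the 10 were lower and 1 higher in pEpiLCs, and of the 47 large subunit factors 23 were lower and 7 higher.

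Over all genes tested between pEpiLCs and aEpiLCs, 6.28% were higher and 9.3% lower. Of these lists, 1 of the 41 small subunit factors (2.44%) and 1 of the 47 large subunit factors (2.13%) passed the test, both higher in pEpiLCs. These were Rcl1, an enzyme of 18S maturation, at 0.28 (adjusted p = 0.0255), and the helicase Ddx24 at 0.29 (adjusted p = 0.0317), and each lost its call in 4 of the 6 fits that left out a replicate. The 10 polymerase I genes did not pass the test, with log2 fold changes between -0.07 and 0.25 and a lowest adjusted p = 0.194, that of Taf1d. Without pEpiLC replicate 1 the counts were 2 of 41 higher, 2 of 47 higher with 1 lower, and 1 of 10 higher.

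**Figure D4:**
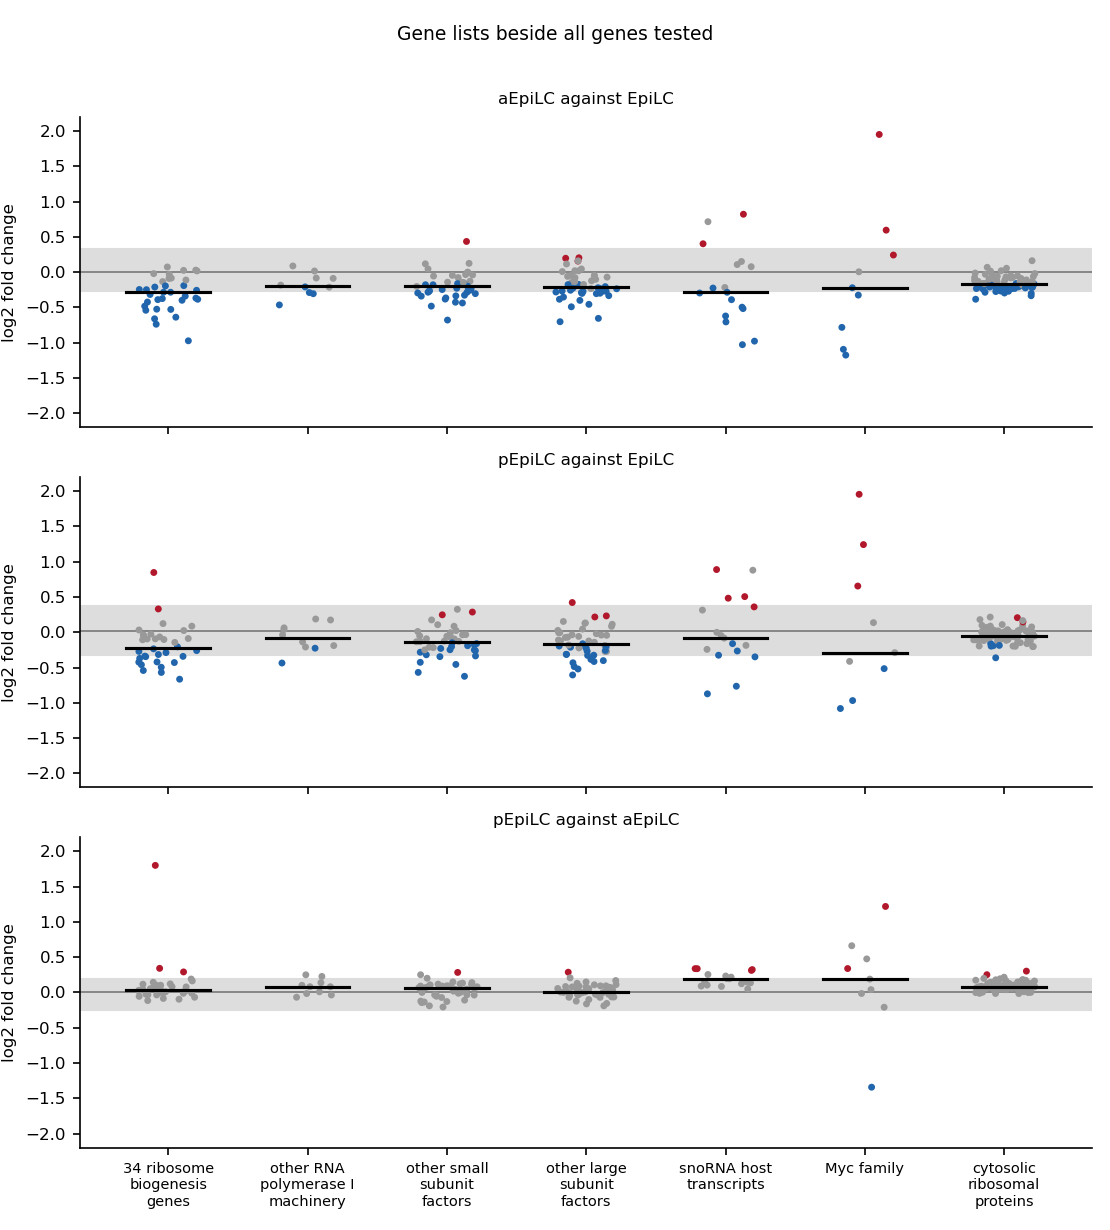
Log2 fold change of each gene (points) of the 34 members and of 6 further lists in the 3 comparisons, with red for higher and blue for lower at an adjusted p below 0.05, grey for not past the test, and a black line at each list's median. The grey band spans the middle 50% of all genes tested and the grey line is their median. In aEpiLCs the medians of all 7 lists lie below the median of all genes, and between pEpiLCs and aEpiLCs the medians lie between 0.01 and 0.19.

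Ribosomal protein genes, the cargo of the pathway, were more often lower than higher in aEpiLCs. No test compared the counts of calls between the later states. Of 81 cytosolic ribosomal protein genes, 40 were lower and 41 did not pass the test in aEpiLCs, and their median was -0.17 on the log2 scale. In pEpiLCs 5 were lower, 2 were higher and 74 did not pass the test, with a median of -0.05 and 56 values below 0. Over all genes tested, 22.6% were lower and 24% higher in aEpiLCs, and 21.4% were lower and 22.8% higher in pEpiLCs. Of all genes, 6.28% were higher in pEpiLCs than in aEpiLCs. Between pEpiLCs and aEpiLCs 79 did not pass the test and 2 were higher, Rps12 at 0.30 (adjusted p = 0.0311) and Rplp0 at 0.25 (adjusted p = 0.0443), each lost in 5 of the 6 fits that left out a replicate and Rplp0 also without a filter or with at least 10 counts in every library. Without pEpiLC replicate 1, these counts were 8 lower and 11 higher against EpiLCs, with a median of 0.01, and 7 higher against aEpiLCs.

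Transcripts that carry snoRNAs in their introns are the source of most guide RNAs for the snoRNPs. Of 17 host transcripts tested, 10 were lower and 2 higher in aEpiLCs, and 6 were lower and 4 higher in pEpiLCs. These are 58.8 and 11.8% in aEpiLCs and 35.3 and 23.5% in pEpiLCs. Over all genes tested, 22.6% were lower and 24% higher in aEpiLCs, and 21.4% were lower and 22.8% higher in pEpiLCs. Snhg1 had 199, 179 and 193 CPM in EpiLCs, 107, 93.4 and 82.2 CPM in aEpiLCs and 107, 109 and 97.3 CPM in pEpiLCs, falling by 1.03 (standard error 0.085, adjusted p = 6.53e-07) and 0.87 (standard error 0.068, adjusted p = 0.000152) on the log2 scale. Gas5 fell by 0.98 and 0.76. Snhg3 rose by 0.82 (adjusted p = 0.00027) and 0.89 (adjusted p = 0.00173). Between pEpiLCs and aEpiLCs 13 did not pass the test and 4 were higher, among them Zfas1 at 0.34 (adjusted p = 0.0169) and Snhg12 at 0.34 (adjusted p = 0.0313), each lost in 4 of the 6 fits that left out a replicate, among them all 3 without an aEpiLC replicate. Over all genes tested, 6.28% were higher in pEpiLCs than in aEpiLCs. Without pEpiLC replicate 1, 6 of the 17 host transcripts were higher than in aEpiLCs, and 7 were lower and 4 higher than in EpiLCs. Some members carry snoRNAs themselves. In the GENCODE vM21 annotation, 6 of the 34 (Ncl, Gnl3, Nop56, Nop58, Dkc1 and Wdr43) hold 19 snoRNA or scaRNA genes within their bodies on the same strand, a share of 17.6%, against 260 of 16739 protein-coding genes of the table, or 1.55%. These 6 genes had log2 fold changes from -0.39 to -0.02 in aEpiLCs and from -0.37 to -0.03 in pEpiLCs.

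Of 9 genes of the Myc family, 3 were higher and 5 lower in aEpiLCs, and 3 were higher and 3 lower in pEpiLCs (4 higher and 5 lower without pEpiLC replicate 1). Over all genes tested, 24% were higher and 22.6% lower in aEpiLCs, and 22.8% were higher and 21.4% lower in pEpiLCs. Mxd4 and Mxi1 encode partners of Max that oppose Myc. Mxd4 rose by 1.95 on the log2 scale in aEpiLCs (adjusted p = 5.97e-08) and 1.96 in pEpiLCs (adjusted p = 0.000145), and Mxi1 fell by 1.18 (adjusted p = 5.51e-06) and 0.97 (adjusted p = 0.00187). Of the Myc genes themselves, Myc fell in aEpiLCs and Mycn fell in pEpiLCs, where Mycl rose by 1.24 (adjusted p = 0.00181). Myc had 52.5, 49.9 and 55.8 CPM in EpiLCs, 28.4, 25.4 and 21.1 CPM in aEpiLCs and 52.1, 36.1 and 30.9 CPM in pEpiLCs. Its log2 fold change was -1.10 in aEpiLCs (standard error 0.097, adjusted p = 1.23e-06) and -0.41 in pEpiLCs (standard error 0.181, adjusted p = 0.0995), where pEpiLC replicate 1 lay at the level of EpiLCs and without that library the fall passed the test. Mycn, the more abundant of these, had 226, 216 and 205 CPM in EpiLCs and 218, 284 and 270 CPM in aEpiLCs, against 63.4, 128 and 115 CPM in pEpiLCs. It had log2 fold changes of 0.24 in aEpiLCs (standard error 0.084, adjusted p = 0.0308) and -1.08 in pEpiLCs (standard error 0.223, adjusted p = 0.00694). The rise in aEpiLCs was lost without EpiLC replicate 2 or 3, without aEpiLC replicate 2 or 3 and with all 9 libraries in the fit. Mycn was lower in pEpiLCs than in aEpiLCs by 1.34 on the log2 scale (adjusted p = 0.011), lost without aEpiLC replicate 2 or 3, and Mycl was higher by 1.22 (adjusted p = 0.00558). Whether these levels bear on the members was not tested.

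Proteins of the Myc family bind the E-box letters CACGTG, which read the same on both strands. RefSeq gives promoter stretches (GRCm38.p6, from 250 bases before to 50 after the start of transcription) for 30 of the 34 members, all but Bop1, Fbl, Npm1 and Rrp12. CACGTG occurred in 7 of these 30, or 23.3%, against 11.9% of 10715 tested protein-coding genes with a promoter. Counted by promoter entry, the share was 21.2% of the members' entries and 7.15% of all 32851 entries, tested or not. The matches are shown because they mark, letter for letter, which members carry this motif near their start. Each line gives 30 bases 5′ to 3′ on the gene's strand, with the motif in capitals.
Rrn3, chr16:13780472-13780501, plus strand: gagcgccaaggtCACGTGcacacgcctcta
Rrn3, chr16:13780639-13780668, plus strand: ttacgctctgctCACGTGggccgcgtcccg
Nop2, chr6:125131811-125131840, plus strand: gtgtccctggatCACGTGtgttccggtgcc
Utp18, chr11:93885769-93885798, minus strand: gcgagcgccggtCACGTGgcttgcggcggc
Pes1, chr11:3963965-3963994, plus strand: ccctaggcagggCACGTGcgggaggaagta
Wdr43, chr17:71616220-71616249, plus strand: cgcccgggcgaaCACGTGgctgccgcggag
Utp20, chr10:88826765-88826794, minus strand: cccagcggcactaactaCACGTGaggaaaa
Mybbp1a, chr11:72441347-72441376, plus strand: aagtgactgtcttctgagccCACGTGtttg

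In Rrn3, Nop2 and Utp18 the motif begins 215 and 48, 60 and 20 bases before the start, and in Pes1, Wdr43, Utp20 and Mybbp1a it begins at base 3, 18, 38 and 41 of the transcript. Of these 7 genes, Rrn3, Nop2, Utp18, Pes1 and Mybbp1a were lower in aEpiLCs, and Wdr43 and Utp20 did not pass the test in any comparison, which is close to the 70.6% of all 34 members that were lower in aEpiLCs. Npm3 and Rrp1 have a promoter entry without these letters. A match is a description of the sequence and says nothing of binding in these cells, and the missing letters say nothing of the factor.

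Some members share sequence with other genes. Exons of 15 members overlap exons of an annotated gene on the opposite strand, and the sources used here do not say whether counting used strand, so reads in those stretches cannot be told apart. The overlaps are short, from 5 bases in Nop56 with Idh3b to 473 bases in Utp14a with 9530027J09Rik. For Npm3 the partner is Gm15491 (84 bases, 0.561 CPM in EpiLCs, 0.645 CPM in aEpiLCs and 1.42 CPM in pEpiLCs), and for Rrp1b it is Hsf2bp (54 bases, 29.1, 4.67 and 3.68 CPM). Rrp1 has no such overlap. Of the 11 members with a stretch of at least 300 bases at 90% identity or more elsewhere, 7 have the similar gene in the table, and for Wdr12 these include Pms1 with 31.9 CPM.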

How the data were processed

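The deposited table holds estimated counts per gene, which the authors made with STAR 2.7.9a and RSEM 1.3.1 on GRCm38, per the submitters' processing notes. The annotation, read cleaning and strandedness are not given in the sources used here. Of the deposited expected counts, 20.2% were not whole and were rounded to whole numbers. Each comparison was fitted on its 6 libraries, after filterByExpr and TMM normalization, with edgeR 4.0.16 (glmQLFit and glmQLFTest, R 4.3.3). Standard errors were derived from the log2 fold change and the F statistic. P-values were Benjamini-Hochberg adjusted over all genes tested. An exact permutation test of 3 against 3 libraries cannot go below p = 0.1. Total counts were at least 20560564 per library. Counting error (Poisson) was at most 2.99% of a level for any member and state, and intervals rest on the spread between replicates.

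The 34 members, their role groups and the lists of other genes were chosen with earlier results of these data known. The values of every library are given for the member with the largest change of each role group in each comparison, for members past the 2-fold limit and for the sets Npm1 with Npm3, Rrp1 with Rrp1b and Nop56 with Nop58. From each further list up to 2 genes with the largest changes in each direction are named, with Myc and Mycn. Not every gene that this rule would name is reported here.

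Alternatives were RLE size factors, library sizes alone, the likelihood ratio test, DESeq2 1.42.0, no filter, at least 10 counts in every library, all 9 libraries in 1 fit, the replicate number as a block, and leaving out each replicate in turn. Counts of the other lists without pEpiLC replicate 1 were added after seeing the data. Scripts were tested on simulated data. Gene positions, coding lengths of the principal isoform and snoRNA genes came from GENCODE vM21, promoters from RefSeq, and similar sequences from blastn searches of the members' transcripts. No 2 replicates agreed within sampling noise.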

Additional observations from a re-analysis of the deposited data

Results flagged for a closer look

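The change over 24 h differed between the media for 3 of the 34 members, as the test of pEpiLCs against aEpiLCs gives directly, while 15.6% of all genes tested passed it. Npm3 changed by 1.80 more on the log2 scale in pEpiLC medium than in aEpiLC medium (adjusted p = 1.22e-05, edgeR's quasi-likelihood test). For Rrp1 the difference was 0.34 (adjusted p = 0.0165) and for Pes1 it was 0.29 (adjusted p = 0.0316). The Rrp1 call was lost without aEpiLC replicate 1 or 2, and the Pes1 call without any aEpiLC replicate and without pEpiLC replicate 2 or 3. All pEpiLC libraries lay above all aEpiLC libraries for each of the 3 genes, as for 2941 of all 15198 genes tested. In either direction, libraries did not overlap for 39% of all genes. The 3 genes were picked by a test on these same libraries, so their separation adds no support. Groups of 3 libraries are too small for a test of outlying libraries.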

How the results depend on the processing

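Under the 8 settings that kept all libraries, the counts of members in the 3 comparisons stayed within 1.5 times their reported values. The median of the members ranged from -0.33 to -0.23 in aEpiLCs, from -0.26 to -0.16 in pEpiLCs and from -0.0044 to 0.088 between pEpiLCs and aEpiLCs over all 14 alternatives. Leaving out single replicates moved the count of members higher in pEpiLCs than in aEpiLCs between 1 and 6. In the other comparisons the count of lower members ranged from 22 to 25 in aEpiLCs and from 14 to 18 in pEpiLCs over all alternatives. Of the members past the test, 22 of 24 in aEpiLCs, 16 of 20 in pEpiLCs and 1 of 3 between pEpiLCs and aEpiLCs passed it under every alternative.

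Signs changed for 4 members named in full, none past the test. Rrp1 in aEpiLCs (main value -0.03) had 0.025 with library sizes alone and ranged from -0.063 to 0.020 without single replicates. Nop56 between pEpiLCs and aEpiLCs (main value 0.00) had -0.010 with library sizes alone, -0.000597 with no filter, -0.00788 with at least 10 counts in every library, -0.000338 with all 9 libraries and -0.000486 with the replicate block, and ranged from -0.0287 to 0.0381 without single replicates. In that comparison Npm1 ranged from -0.0312 to 0.0903 and Nop58 from -0.0539 to 0.0791. The cause was not tested.

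The main fits did not pair samples by replicate number. Deviations of libraries with the same number correlated between -0.060 and 0.172 over 15797 genes and 3 comparisons, and passed 0.1 in 2 of 3 pairs of pEpiLCs with aEpiLCs. Those 3 pairs had 0.172, 0.117 and 0.062, and pEpiLC and aEpiLC libraries with unlike numbers had -0.138 to 0.058. With the replicate block, 24 members were lower in aEpiLCs, 17 were lower in pEpiLCs (Gnl3 lost its call) and 3 were higher in pEpiLCs than in aEpiLCs. Counting error was at most 2.99% of a level for the members, and the SD between replicates was at or below it in 13 of 102 pairs of member and state. With 3 libraries a state, standard errors of 0.06 to 0.11 on the log2 scale between pEpiLCs and aEpiLCs limit what could be seen.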

Other observations

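The genes next to the members that differed between pEpiLCs and aEpiLCs were looked up after those values were seen, and are given as values only. The nearest gene of the table that does not overlap Npm3 is Fgf8, a growth factor of the primitive streak, 4819 bases away on the same strand of chromosome 19. Fgf8 had 3.05, 2.65 and 2.39 CPM in EpiLCs. It had 0.750, 0.317 and 0.138 CPM in aEpiLCs and 124, 110 and 111 CPM in pEpiLCs, so like Npm3 its libraries fell into 3 separate groups with aEpiLCs lowest. Its log2 fold change was -2.75 in aEpiLCs against EpiLCs (adjusted p = 0.000102), and 5.41 in pEpiLCs against EpiLCs (adjusted p = 1.25e-06). On the other side of Npm3, Kcnip2, a potassium channel partner 42248 bases away, was lower in pEpiLCs than in aEpiLCs, with a log2 fold change of -1.32 (adjusted p = 0.0487). Next to Rrp1, the protease inhibitor gene Cstb, 12626 bases away, had mean levels of 50.9 CPM in EpiLCs, 33.5 CPM in aEpiLCs and 63.2 CPM in pEpiLCs, a log2 fold change of 0.91 between pEpiLCs and aEpiLCs (adjusted p = 0.00224). Next to Pes1, Gal3st1, 3632 bases away, had a log2 fold change of 0.67 in that comparison and did not pass the test (adjusted p = 0.275). The pseudogene Gm11953 on the other side of Pes1, 11259 bases away, was higher in pEpiLCs at very low levels, with 0.996 CPM against 0.124 CPM in aEpiLCs (log2 fold change 2.95, adjusted p = 0.0348). Of 49 tested neighbours of the members, 8 passed the test between pEpiLCs and aEpiLCs, a share of 16.3% that lies near the 15.6% of all genes.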
